A study of Mus musculus with 66 samples.

Results

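H3.3 and newly made histones were examined at 10 mouse genes for neuronal RNA-binding regulators: Rbfox1, Rbfox3, Celf2, Celf4, Celf5, Elavl2, Elavl4, Nova1, Msi2 and Khdrbs2. The regions were those that any of the 7 deposited tables of changed regions assigned to one of these genes, by symbol, Ensembl gene ID or transcript accession. They numbered 144 of the 57678 listed regions. CATCH-IT, a capture of newly made histones, gave 132 of them, and H3.3 chromatin immunoprecipitation gave 12, over 7 of the genes. Rbfox3, Elavl4 and Nova1 were listed by CATCH-IT only.

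All animals were C57bl/6 mice. Cortical neurons of E16.5 embryos were kept 8 days in vitro, and isotonic KCl, which depolarises neurons, was compared with unstimulated cells after 30 min, 2 hr and 5 hr for H3.3, and after 5 hr for H3.1/2 and CATCH-IT, with 3 libraries a group. The labels give the 30 min control 4 libraries, of which one repeats another, while its table has 3 control values. Hippocampal nuclei of mice about 7 weeks old, kept for 4 weeks in an enriched environment or normally housed, were sorted into NeuN-positive nuclei (2 libraries a group) and NeuN-negative nuclei (3 libraries a group), and H3.3 was immunoprecipitated. The NeuN-negative sort holds every cell type without the antigen, and the tables hold only changed regions, so that neither sort could be checked here against cell type markers.

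RNA-binding proteins of this kind sit on short sequences in pre-mRNA and decide which exons are kept, which 3′ ends are used and how long a messenger lasts. Rbfox proteins bind UGCAUG, Celf proteins bind GU-rich stretches, Elavl (Hu) proteins bind AU- and U-rich stretches, Nova1 binds clusters of YCAY, Musashi proteins such as Msi2 repress or stabilise messengers through UAG sites, and Khdrbs2 (SLM1) controls neurexin splicing. Most are read from very long genes that are transcribed strongly in neurons. The Rbfox3 protein is NeuN, the antigen of the sort. H3.3 is the H3 variant that can be placed into chromatin outside DNA replication.

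The regions below carry the H3.3 results, and 7 of the 12 are shown to let a reader see what kind of sequence lost or gained the histone. Sequences are the plus strand of NCBIM37 (mm9), 5′ to 3′, and capitals mark CG dinucleotides and TGANTCA, the motif of AP-1 factors such as Fos and Jun. Celf5, Celf2, Msi2 and Elavl2 are transcribed from the minus strand.
Khdrbs2, lost at 30 min, chr1:32644741-32644960: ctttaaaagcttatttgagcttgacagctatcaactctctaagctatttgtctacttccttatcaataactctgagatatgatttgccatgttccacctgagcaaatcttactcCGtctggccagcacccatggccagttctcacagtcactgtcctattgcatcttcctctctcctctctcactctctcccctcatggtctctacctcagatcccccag
Celf5, lost at 30 min, chr10:80929941-80930180: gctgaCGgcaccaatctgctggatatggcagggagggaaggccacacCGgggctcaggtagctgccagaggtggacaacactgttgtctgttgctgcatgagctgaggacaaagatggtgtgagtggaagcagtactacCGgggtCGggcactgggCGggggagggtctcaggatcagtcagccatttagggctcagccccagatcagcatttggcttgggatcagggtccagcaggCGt
Celf2, lost at 2 hr, chr2:6777381-6777580: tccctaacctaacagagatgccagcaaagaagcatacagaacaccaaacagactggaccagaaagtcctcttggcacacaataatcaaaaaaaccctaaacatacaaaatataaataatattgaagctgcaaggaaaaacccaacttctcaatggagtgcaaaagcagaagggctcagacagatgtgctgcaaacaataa
Rbfox1, listed as gained at 5 hr, chr16:5938661-5938860: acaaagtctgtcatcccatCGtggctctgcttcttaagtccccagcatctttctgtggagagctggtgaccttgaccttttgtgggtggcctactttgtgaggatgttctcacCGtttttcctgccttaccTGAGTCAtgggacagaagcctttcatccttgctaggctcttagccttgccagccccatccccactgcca
Msi2, gained in NeuN-positive nuclei, chr11:88232241-88232440: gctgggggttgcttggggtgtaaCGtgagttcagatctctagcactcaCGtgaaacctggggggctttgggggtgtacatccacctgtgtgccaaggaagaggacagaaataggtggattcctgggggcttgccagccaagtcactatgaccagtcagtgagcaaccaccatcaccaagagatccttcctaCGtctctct
Msi2, gained in NeuN-negative nuclei, chr11:88376001-88376200: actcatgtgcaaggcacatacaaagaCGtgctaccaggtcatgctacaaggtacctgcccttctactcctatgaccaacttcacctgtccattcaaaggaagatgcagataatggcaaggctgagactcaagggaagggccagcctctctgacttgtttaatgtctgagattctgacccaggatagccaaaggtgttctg
Elavl2, gained in NeuN-negative nuclei, chr4:90985141-90985360: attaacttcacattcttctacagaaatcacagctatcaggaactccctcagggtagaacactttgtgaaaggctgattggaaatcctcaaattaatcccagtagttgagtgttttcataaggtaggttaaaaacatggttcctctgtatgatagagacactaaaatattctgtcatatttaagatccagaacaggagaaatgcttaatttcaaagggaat

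Of the 12 regions, 10 lay in introns, 1 overlapped a coding exon and 1 lay upstream of the GENCODE gene. The Celf5 region, which overlaps a coding exon, had the highest GC content of the 12, 60.0%, and 6 CG dinucleotides. The Elavl2 region had 35.5% GC and no CG, and the Celf2 region had 39.5% GC and no CG. TGANTCA, searched on both strands, was found in 1 of the 12, the Rbfox1 region, and 8.85% of all 667 regions listed for H3.3 at 5 hr hold it. The CREB motif TGACGTCA, searched likewise, was in none of the 12 windows.

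H3.3 at 30 min of KCl was lower at 1 region of Khdrbs2 and 1 region of Celf5, and no member region was gained. Values are the authors' normalised read counts per region. They are deposited without library names, so value 1 of one region is known to be the same library as value 1 of another only by its place. Of all 457 regions listed at 30 min, 78.6% were lost and 19.9% were gained with the authors' adjusted p at or under 0.05, and 2 losses are too few to be read against that. In bulk chromatin, fewer cells carrying the histone and less histone per cell cannot be told apart.

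Khdrbs2 had 1.73, 6.31 and 4.12 normalised reads in the KCl libraries, against 15.21, 14.99 and 14.65 in the control libraries. The control libraries lay close together, and the highest KCl library stood well below all of them. The means were 4.05 ± 2.29 with KCl and 14.95 ± 0.282 without (SD, n = 3 each). In the authors' deposited table the log2 fold change was -1.88, the adjusted p was 0.0174, and the ratio to input was 0.50 with KCl and 2.12 without. The region lies in an intron, 415.2 kb from the start of the gene in the authors' deposited table.

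Celf5 had 4.32, 6.31 and 2.06 normalised reads with KCl, against 13.95, 19.98 and 11.72 in control libraries. The groups did not overlap, and the control spread was wider than at Khdrbs2. The means were 4.23 ± 2.13 with KCl and 15.2 ± 4.27 in control libraries (SD, n = 3 each). The authors' deposited table gave -1.85 as log2 fold change, 0.0279 as adjusted p and ratios to input of 0.85 with KCl and 2.44 without. That table calls the region a proximal promoter at -0.192 kb from a gene start. Celf5 is on the minus strand, however, and the distance was counted from the lower coordinate of the transcript, its 3′ end. Counted along transcription the region lay 6.06 kb from the start of that transcript and 15.4 kb from the start of the GENCODE gene.

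Both calls rested on few reads, 2 to 6 per KCl library at each region, against 11 to 24 per control library. Without KCl value 1 the log2 fold change of Khdrbs2 was -1.52, under the 3-fold limit of the table, and without KCl value 3 that of Celf5 was -1.52 too. Per the labels, all KCl libraries at 30 min bear 1 sequencing lane number and all controls another, so lane number and treatment cannot be told apart. The same holds at 2 hr, in CATCH-IT and in NeuN-negative nuclei. For H3.1/2 at 5 hr and in NeuN-positive nuclei each group bore more than 1 lane number. The groups shared no lane number, so lane number and treatment cannot be told apart there either. The labels name no sequencing run. The repeated 30 min control has the same lane number and index as the library it repeats, so 1 lane number may cover more than 1 run.

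H3.3 at 2 hr was lower with KCl at another region of Khdrbs2 and at 1 region of Celf2, and again none was gained. Of the 689 regions listed at 2 hr, 85.3% were lost and 14.2% gained at the same adjusted p. Celf2 is a repressor and activator of alternative exons that also acts on messenger stability in the cytoplasm.

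Khdrbs2 had 5.51, 3.03 and 5.45 normalised reads with KCl, against 16.29, 14.99 and 15.96 in control libraries. Every control library was well above every KCl library. The means were 4.66 ± 1.41 with KCl and 15.7 ± 0.676 without (SD, n = 3 each). The authors' deposited table gave -1.76 as log2 fold change and 0.0135 as adjusted p, with ratios to input of 0.44 with KCl and 2.84 without, and a distance of 77.7 kb from the gene start. This intronic region and the one lost at 30 min are separate places in the same gene. Without KCl value 2 its log2 fold change was -1.52.

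Celf2 had 1.84, 3.03 and 1.36 normalised reads with KCl, against 9.16, 10.00 and 11.05 without. These KCl values stood for 2, 4 and 1 reads, and the control values for 9, 12 and 9. The means were 2.08 ± 0.860 with KCl and 10.1 ± 0.947 without (SD, n = 3 each). In the authors' deposited table the log2 fold change was -2.28, the adjusted p 0.0228 and the ratio to input 0.27 with KCl and 2.17 without. The distance in the authors' deposited table was 134.9 kb, counted from the 3′ end, and along transcription it was 224.9 kb, in an intron.

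**Figure D1:**
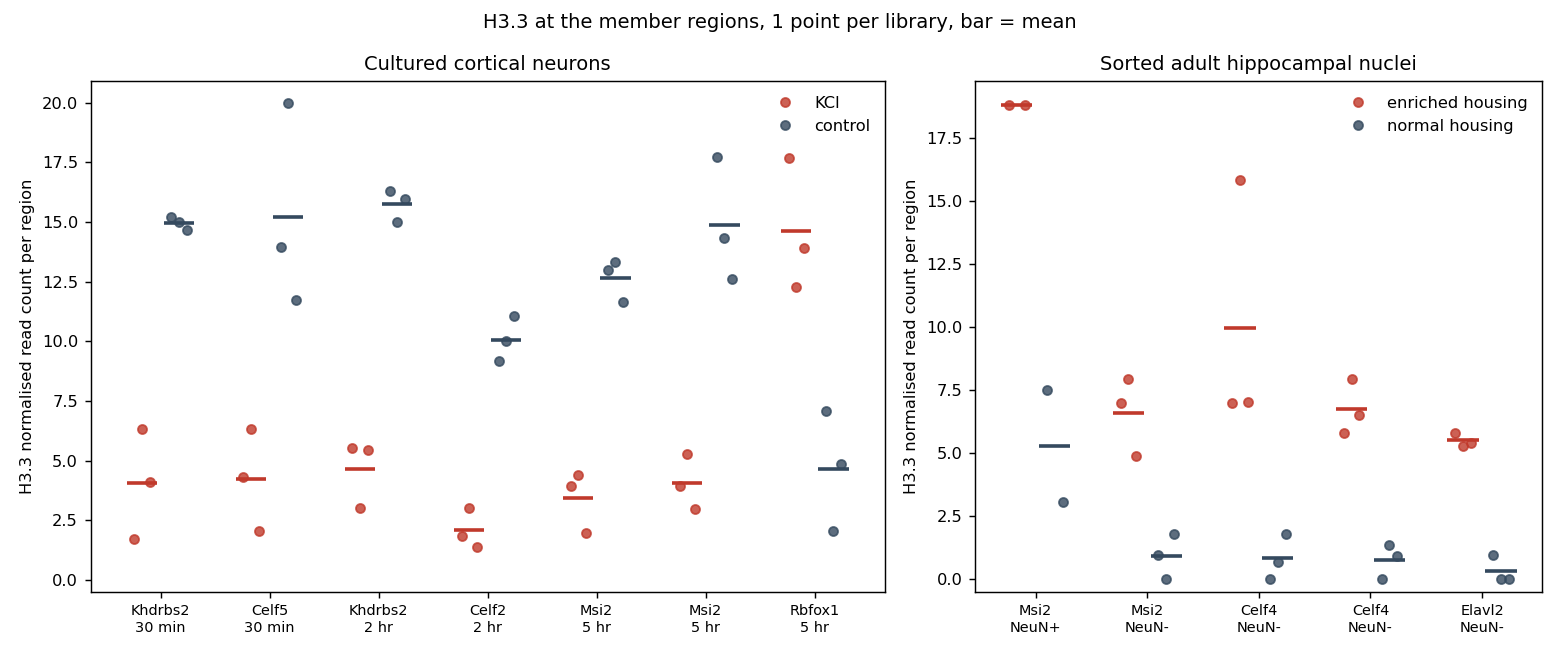
H3.3 normalised read count per library (y axis) at the 12 member regions (x axis, gene and time point or sort), with KCl or enriched housing in red left of control or normal housing in blue, and bars at the group mean. The 4 regions at 30 min and 2 hr and both Msi2 regions at 5 hr were lower with KCl, the Rbfox1 region was higher with KCl, and all 5 regions of sorted nuclei were higher after enriched housing.

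At 5 hr of KCl, 3 member regions were listed for H3.3 and none passed the authors' adjusted p of 0.05, although in the authors' deposited table the unadjusted p was 5.73e-05 and 1.65e-05 at Msi2 and 6.32e-05 at Rbfox1. At 5 hr 1.65% of the 667 regions were gained and 1.35% lost at that threshold. The test behind these p-values is not stated, and each region was listed for a difference of about 3-fold on the same libraries.

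Msi2 at chr11:88324921-88325120, 254.5 kb from its start in the authors' deposited table, had 3.93, 4.39 and 1.98 normalised reads with KCl, against 12.98, 13.33 and 11.64 without. Its other region, chr11:88481441-88481640, at 98.0 kb in the authors' deposited table, had 3.93, 5.27 and 2.98 with KCl, against 17.71, 14.35 and 12.61 without. Both had lower values in all KCl libraries, and the groups did not overlap. The means at the region farther from the start were 3.43 ± 1.28 with KCl and 12.65 ± 0.892 without, and at the nearer one 4.06 ± 1.15 with KCl and 14.9 ± 2.59 without (SD, n = 3 each). In the authors' deposited table the log2 fold changes were -1.88 and -1.87, with adjusted p of 0.105 and 0.0863, for the farther and the nearer region. The ratios to input in the authors' deposited table were 0.79 with KCl and 1.77 without at the farther region, a log2 difference of -1.16 and so under 3-fold, and 1.01 with KCl and 3.31 without at the nearer one. Both lie in introns.

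Rbfox1 had 17.70, 12.29 and 13.89 normalised reads with KCl, against 7.08, 2.05 and 4.85 without. All KCl libraries were above all controls, in the opposite direction to the 6 other culture regions of the gene group. The means were 14.6 ± 2.78 with KCl and 4.66 ± 2.52 without (SD, n = 3 each). The authors' deposited table gave 1.65 as log2 fold change and 0.108 as adjusted p, and ratios to input of 1.73 with KCl and 0.52 without. Where this place is depends on the annotation. The authors' deposited table puts it 53.9 kb inside an early-starting transcript of A2bp1, an older name of Rbfox1, while against the start of the GENCODE gene it lies at -870.6 kb, upstream.

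H3.1/2 at 5 hr had 7 listed regions in all, of which 42.9% were gained and 14.3% lost with an adjusted p at or under 0.05, and none was at a member gene.

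In sorted nuclei all 5 listed member regions gained H3.3 after enriched housing, at Msi2 in NeuN-positive nuclei and at Msi2, Celf4 and Elavl2 in NeuN-negative nuclei. Gains were also the common direction in these tables. In NeuN-positive nuclei 70.1% of 1642 listed regions were gained and 27.7% lost with an adjusted p at or under 0.05, and in NeuN-negative nuclei 70.6% of 1196 were gained and 29.3% lost. With 1 region in one sort and 4 in the other, all in the common direction, the counts cannot be read against these backgrounds. No member region was listed in both sorts, and the difference between the sorts was not tested, since each table lists only its own changed regions.

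In NeuN-positive nuclei the Msi2 region had 18.84 and 18.84 normalised reads after enriched housing, against 7.53 and 3.08 in normally housed mice. The enriched libraries held 24 and 22 reads there, and the normally housed ones held 5 and 3. The means were 18.84 after enriched housing, where both values were equal, and 5.31 ± 3.15 in normally housed mice (SD, n = 2 each). In the authors' deposited table the log2 fold change was 1.83, the adjusted p was 0.0368, and the ratio to input was 2.29 after enriched housing and 0.64 in normally housed mice. Without the lower of the normally housed values the log2 fold change was 1.32, under 3-fold, and without the higher it was 2.61. One read was worth 0.785 and 0.856 normalised reads in the enriched libraries, against 1.51 and 1.03 in the normally housed ones, so that the enriched libraries were the deeper ones, and the groups shared no lane number. Lane and housing therefore cannot be told apart here, and the part of depth in this difference was not tested. Msi2 is a Musashi protein known best from stem and progenitor cells. The intronic region lay 171.3 kb from the start of the authors' transcript in the authors' deposited table and 347.5 kb from the GENCODE start.

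In NeuN-negative nuclei Msi2 gained H3.3 at another intronic place. It had 6.98, 7.93 and 4.88 normalised reads after enriched housing, against 0.95, 0 and 1.81 in normally housed mice. The reads behind these values were 6, 3 and 9 in enriched libraries, against 1, 0 and 2 in normally housed ones. The means were 6.60 ± 1.56 after enriched housing and 0.920 ± 0.905 in normally housed mice (SD, n = 3 each). With 3 reads in the normally housed libraries, the ratio of summed reads per depth was 7.09. Its exact 95% interval of 2.07 to 37.6 covers counting error only. This region and those of Celf4 and Elavl2 below were listed for a difference on the same libraries, so such intervals are no test of it. The authors' deposited table gave 2.84 as log2 fold change and 0.00776 as adjusted p. Its ratio to input was 3.85 after enriched housing and infinite in normally housed mice, where input had no read, so input gives no fold there. The distance in the authors' deposited table was 84.6 kb from the 3′ end of the transcript used, and it was 203.3 kb along transcription. Its log2 fold change was 3.80 without normally housed value 3 and 2.26 without normally housed value 2.

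Celf4, whose protein binds many neuronal messengers and is linked to excitability in mice, gained H3.3 at 2 intronic regions. The region nearer the 3′ end had 6.98, 15.85 and 7.05 normalised reads after enriched housing, against 0, 0.68 and 1.81 in normally housed mice. The other had 5.82, 7.93 and 6.51 after enriched housing, against 0, 1.35 and 0.90 in normally housed mice. All enriched libraries were above all normally housed ones, which held 0 to 2 reads each. Means at the first region were 9.96 ± 5.10 after enriched housing and 0.830 ± 0.914 in normally housed mice (SD, n = 3 each). At the second they were 6.75 ± 1.08 after enriched housing and 0.750 ± 0.687 in normally housed mice. The ratio of summed reads per depth was 9.84 (exact 95% interval 3.00 to 50.9) at the first and 7.87 (2.34 to 41.4) at the second, each against 3 reads. The authors' deposited table gave log2 fold changes of 3.59 and 3.17 with adjusted p of 0.00287 and 0.00556. Without normally housed value 1 or 3 that of the first region was 3.00 or 4.87. Without value 1 or 2 that of the second was 2.59 or 3.91. By the ratios to input they were 4.55 and 4.30. Along transcription the regions lay 213.9 kb and 195.1 kb from the start, where the authors' deposited table counts 62.5 kb and 81.2 kb from the 3′ end.

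Elavl2, a neuronal Hu protein that stabilises AU-rich messengers, had 5.82, 5.28 and 5.42 normalised reads after enriched housing, against 0.95, 0 and 0 in normally housed mice. Only 1 read fell in all normally housed libraries together, against 5, 2 and 10 reads in the enriched ones. The means were 5.51 ± 0.280 after enriched housing and 0.317 ± 0.548 in normally housed mice (SD, n = 3 each). The authors' deposited table gave 4.12 as log2 fold change, 0.00556 as adjusted p and ratios to input of 3.15 after enriched housing and 0.09 in normally housed mice. The fold change rests on that 1 read: the ratio of summed reads per depth was 20.1, with an exact 95% interval of 3.15 to 839. The region lies in an intron, 54.5 kb along transcription from the start of the transcript used. The authors' deposited table counts 9.88 kb from the 3′ end, and the GENCODE gene starts farther upstream. With a pseudocount of 1 the log2 fold changes in NeuN-negative nuclei were 1.98 at Msi2, 2.58 and 2.15 at Celf4 and 2.31 at Elavl2.

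In none of the 12 H3.3 regions did the groups overlap, but this also holds for 100% of all regions listed in the H3 tables, which were listed for a difference. An exact two-sided permutation test cannot give less than p = 0.1 with 3 against 3 libraries, or 0.333 with 2 against 2.

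**Figure D2:**
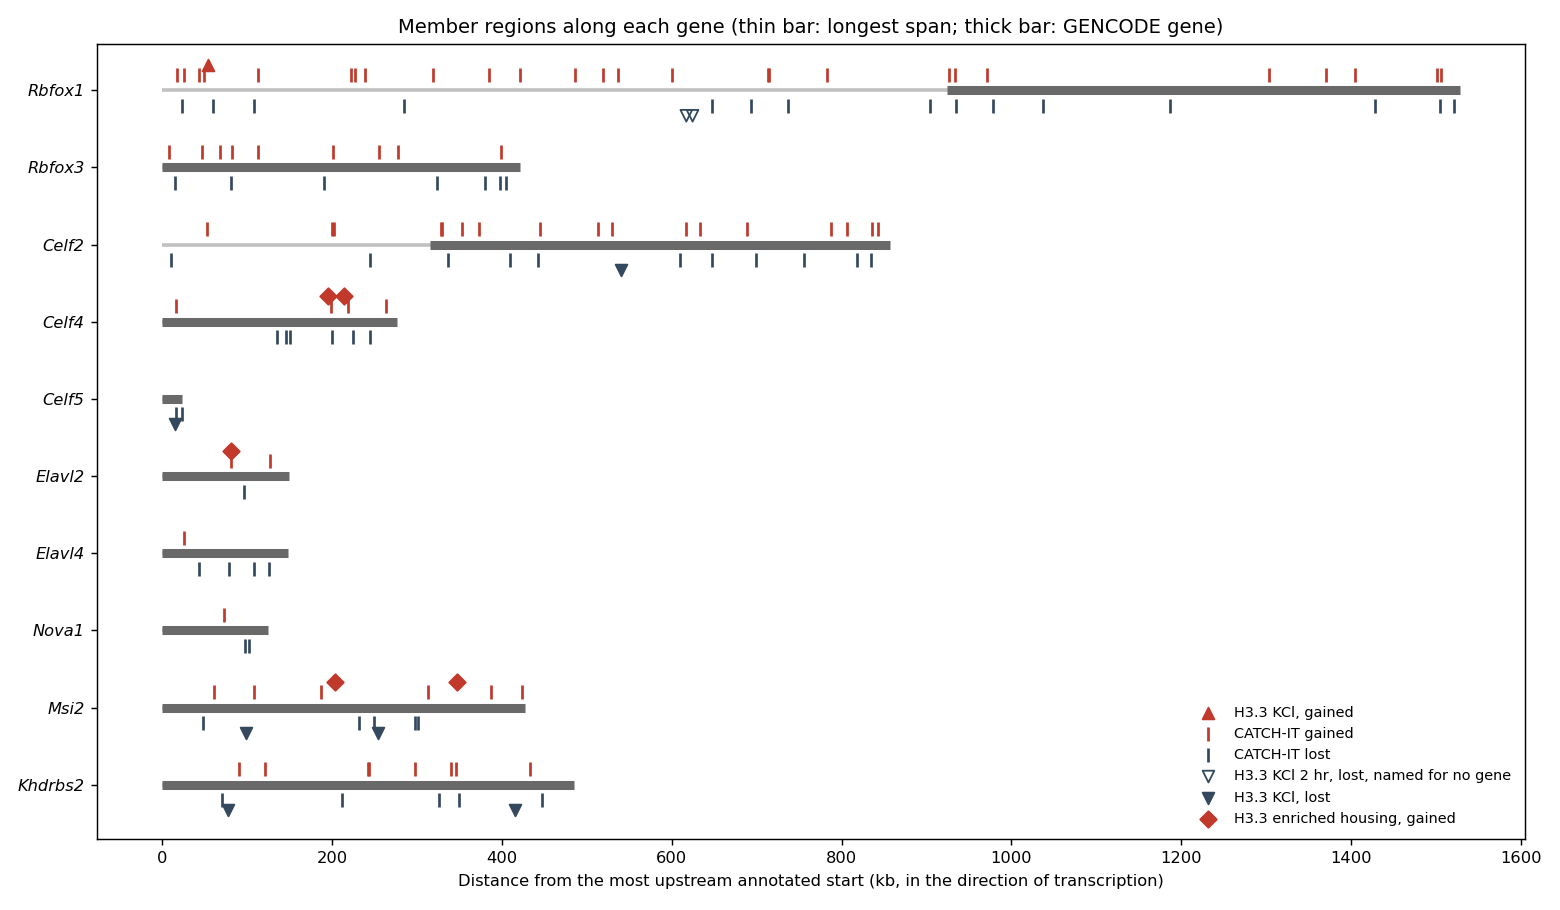
Member regions along each gene, by distance from its most upstream annotated start (x axis, kb), with gained regions above the line in red and lost regions below in blue, CATCH-IT as ticks and H3.3 as triangles (KCl) or diamonds (enriched housing). Regions are spread over the gene bodies, and 26 of the 41 Rbfox1 CATCH-IT regions and the H3.3 region lie upstream of the GENCODE gene (thick bar).

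CATCH-IT after 5 hr of KCl listed every member gene. It gave 132 regions, 74 gained and 58 lost, all with an adjusted p at or under 0.05. Of all 53020 listed regions 57.3% were gained and 42.7% lost at that threshold, against 56.1% gained and 43.9% lost of the member regions, so the split of the member regions was close to that of the table as a whole. Inside their GENCODE bodies the 10 genes held 31.2 regions per Mb, where all protein-coding genes held 23.3 per Mb. The 10 genes were chosen with earlier results of these data known, so this difference is not a test. By gene the density ranged between 20.1 per Mb at Elavl2 and 42.6 per Mb at Celf5, where it came from 1 region in 23.5 kb. By annotation 95 lay in introns, 5 overlapped exons and 32 lay outside the GENCODE gene. From the start of the authors' transcript 91 were over 100 kb away. Within 5000 bp of that start there were 2.

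The longer genes had more regions. Rbfox1, an exon-choice regulator linked to neuronal excitability and the longest of the genes, had 41 regions, 26 gained and 15 lost. Rbfox3, listed under the older name D11Bwg0517e, had 16, of which 9 were gained. Celf2 had 28 with 17 gained, Celf4 had 10 with 4 gained, and Celf5 had 2, both lost. Elavl2 had 3 with 2 gained and Elavl4, a Hu protein of differentiating neurons, had 5 with 1 gained. Nova1 had 3 with 1 gained, Msi2 had 11 with 6 gained, and Khdrbs2 had 13 with 8 gained.

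**Figure D3:**
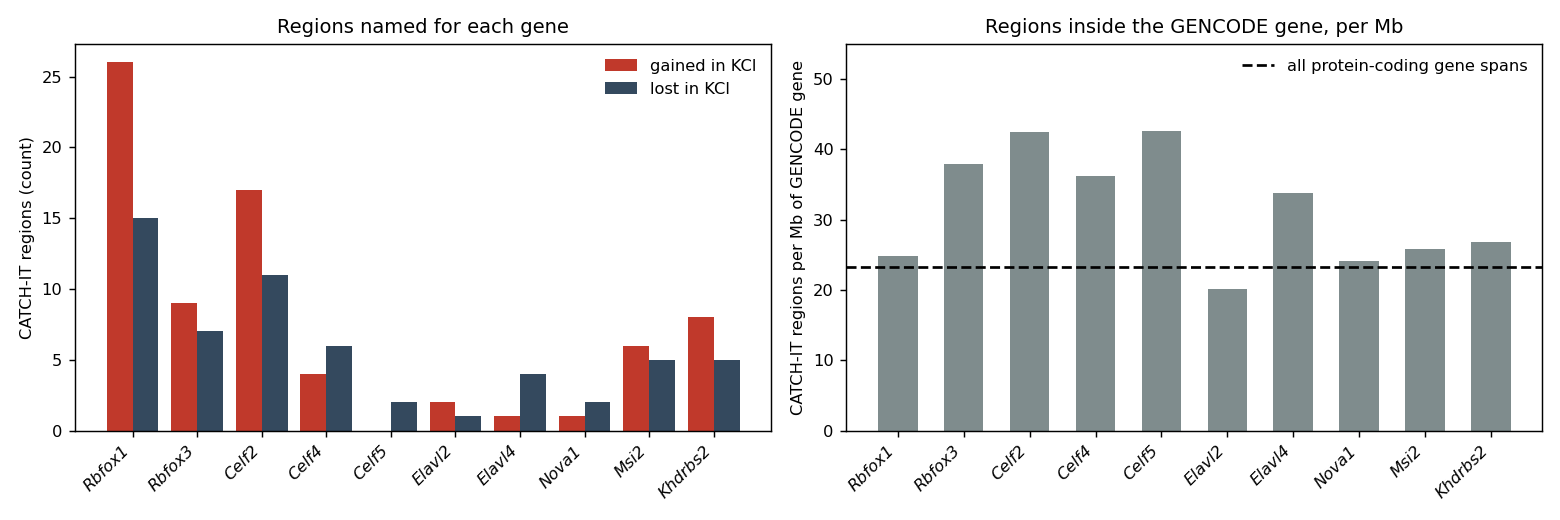
CATCH-IT regions per gene: on the left the number gained with KCl (red) and lost with KCl (blue), on the right the regions inside the GENCODE gene per Mb, with the level over all protein-coding genes as a dashed line. Rbfox1 had 26 gained and 15 lost regions, and per Mb the genes lay between 20.1 and 42.6, against 23.3 for all protein-coding genes. The genes were chosen with earlier results of these data known.

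One group was at 0 in all its libraries at 130 of the 132 regions, 98.5%, against 97.7% of all listed regions. A fold there is only a bound against 3 reads over the group. These are worth 1.00 normalised reads at the pooled depth of the KCl libraries and 0.633 at that of the controls. The higher group enters as the plain mean of its normalised values, so shallow libraries weigh more in it than in the floor. Its own counting error is not covered, so "at least" below means against this floor and is not a strict minimum. Bounds ran between 4.80 and 46.1, with a median of 7.22. At 1 of the 132 regions, in Celf4, the groups overlapped. They did not overlap at 99.24% of the member regions, against 99.25% of all listed regions.

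For each gene the region with the smallest adjusted p in the authors' deposited table is given first. Regions tied for it at Rbfox1, Rbfox3, Celf2, Msi2 and Khdrbs2, and of these the one with the largest group mean is shown, so its bound is the highest among the tied regions. Rbfox1 had 8.02, 6.39 and 16.31 normalised reads at chr16:7389981-7390360 with KCl and 0 in all 3 controls, at least 16.2-fold higher. Rbfox3 had 8.02, 3.20 and 24.46 at chr11:118690181-118690560 with KCl and 0 in every control, at least 18.8-fold higher. KCl value 3 was the highest at both genes, and its libraries differ in what 1 read is worth, 1.34, 0.533 and 2.72 normalised reads.

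Celf2 had 24.05, 1.60 and 5.44 normalised reads with KCl at chr2:6529941-6530320 and 0 in every control, at least 16.4-fold higher, with 18 of its 23 reads in 1 library. Celf4 had 6.68, 7.46 and 8.15 with KCl at a region 16.3 kb from its start and 0 in every control, at least 11.7-fold higher. Its 3 KCl values lay close together, unlike those of the other genes here. Celf5 had 0 in every KCl library at chr10:80928301-80928680, against 1.89, 8.32 and 14.19 in controls, at least 8.12-fold lower.

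Elavl2 had 0 in every KCl library at chr4:90970021-90970400, against 2.21, 9.70 and 21.29 in controls, at least 11.0-fold lower. Elavl4 had 8.02, 3.20 and 19.03 with KCl at chr4:109998541-109998920 and 0 in every control, at least 15.9-fold higher. Nova1, the regulator of synaptic exons first known as a target of an autoimmune brain disease, had 8.02, 3.20 and 29.90 with KCl at chr12:47847021-47847400 and 0 in every control, at least 21.6-fold higher. The Elavl4 and Nova1 values, like those of Rbfox3, came from 6 and 6 reads in the KCl values 1 and 2, and from 7, 11 and 9 reads in value 3 of Elavl4, Nova1 and Rbfox3.

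Msi2 had 8.02, 6.39 and 16.31 with KCl at chr11:88192641-88193020 and 0 in every control, at least 16.2-fold higher. These are the values of the Rbfox1 region, since both stand for 6, 12 and 6 reads. Khdrbs2 had 8.02, 3.20 and 24.46 with KCl at chr1:32351221-32351600 and 0 in every control, at least 18.8-fold higher, again from 6, 6 and 9 reads. The adjusted p in the authors' deposited table ran between 4.15e-07 and 0.000291 over the 132 regions.

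Near the gene starts the listed regions went both ways. At Rbfox1, 1.71 kb from the start of the authors' transcript, the values were 0 in every KCl library, against 5.68, 5.54 and 14.19 in controls, at least 8.45-fold lower. At Celf2, 1.87 kb from the start, they were 10.69, 0.53 and 8.15 with KCl and 0 in every control, at least 10.2-fold higher. The GENCODE genes start 262.3 kb upstream of this Rbfox1 region and 198.2 kb upstream of this Celf2 region, and both places are introns there. Of the CATCH-IT member regions, the one closest to a GENCODE start, named after its values were seen, was chr16:6811801-6812060 in an intron of Rbfox1, 2.62 kb from it. It had 1.34, 7.46 and 2.72 with KCl and 0 in every control, at least 6.06-fold higher. The nearest region of Rbfox3, 5.75 kb from its start, had 2.67, 6.39 and 2.72 with KCl and 0 in every control, at least 6.20-fold higher.

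For the other genes the region nearest the start was far inside. Elavl2 had 1.34, 6.39 and 2.72 with KCl and 0 in every control, at least 5.50-fold higher. Its region lay at 53.0 kb from the start of the transcript used, but 81.0 kb from the GENCODE start. Elavl4 had 0 in every KCl library, against 3.79, 8.32 and 7.10 in controls, at least 6.39-fold lower. This region lay at 13.4 kb from the start of the transcript used, but 78.5 kb from the GENCODE start. The gained Elavl4 region given above lies nearer to the GENCODE start, at 25.8 kb. Msi2 had 0 in every KCl library, against 1.26, 8.32 and 14.19 in controls, at 47.9 kb, at least 7.91-fold lower. Khdrbs2 had 0 in every KCl library, against 0.95, 2.77 and 14.19 in controls, at 71.2 kb, at least 5.96-fold lower. In Celf4, Celf5 and Nova1 the nearest region was the one with the smallest adjusted p.

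Values of 6 and 12 reads were frequent in these CATCH-IT regions, although a single read was the commonest value of the KCl libraries, at 25.1% of their values above 0. Of 400 library values above 0 in member regions, 40.2% were whole multiples of 6 reads, against 36.7% over all listed regions. A value of this kind was present in 102 of the 132 member regions, 77.3%, against 74.9% of all listed regions, and among lost member regions it was in 56 of 58, 96.6%, against 94.8% of all lost regions listed. The same 6 read counts recurred at unrelated places: 6, 6 and 6 with KCl and 0 in the controls at 6 member regions and 1509 regions in all, and 1, 12 and 1 with KCl at 6 and 1825. The library with most reads held a median of 61.6% of the reads of a member region, and the higher group had a median of 18 reads in all. Without regions that hold any multiple of 6, a count chosen after seeing the data, 28 gained and 2 lost member regions were left. The CATCH-IT table bears a duplicate setting of 6 in its name. The titles of the H3.3 libraries at 30 min, at 2 hr and in NeuN-negative nuclei bear a mark of duplicate removal, and those of CATCH-IT, of H3.3 at 5 hr and of NeuN-positive nuclei do not. The read counts and bounds given for CATCH-IT may therefore hold repeated reads. Some multiples of 6 arise by chance, and the part of repeated reads in the CATCH-IT calls was not tested.

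**Figure D4:**
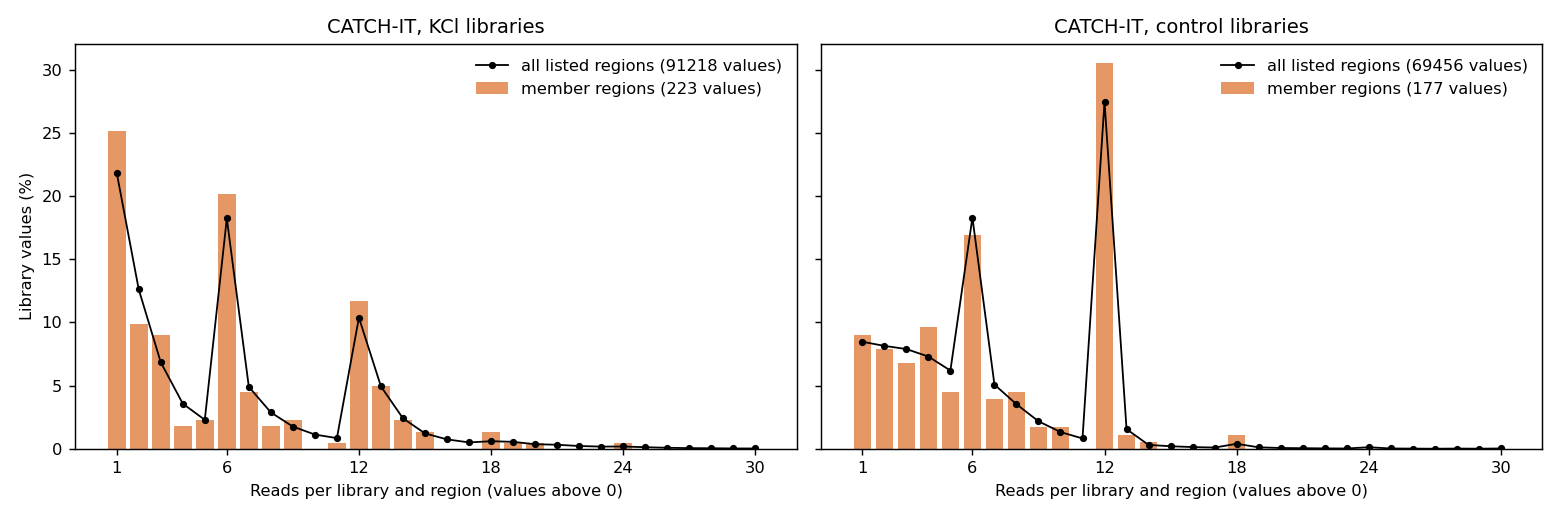
Share of CATCH-IT library values above 0 (y axis, %) by number of reads in the region (x axis), in KCl libraries on the left and controls on the right, for member regions (bars) and all listed regions (line). Member and all listed regions both stand out at 6 and 12 reads, and few values of 11 reads occur.

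H3.3 and CATCH-IT regions of the same gene did not overlap anywhere. The closest pair was in Elavl2, where the H3.3 region gained in NeuN-negative nuclei ended 180 bp from a CATCH-IT region gained with KCl, in another tissue and another treatment. The H3.3 region lost in Celf5 at 30 min lay 1.26 kb from a CATCH-IT region lost at 5 hr. The Rbfox1 region listed as gained at 5 hr lay 4.44 kb from a CATCH-IT region gained at 5 hr and 5620 bp from one lost at 5 hr. The nearest CATCH-IT region was a gained one, opposite to the H3.3 loss, for Khdrbs2 at 30 min (17.9 kb away), for Celf2 at 2 hr (10.2 kb) and for the Msi2 region nearer the gene start at 5 hr (9.82 kb). Beside the Elavl2, Celf5 and Rbfox1 regions, the other 9 had a gap between 3.98 kb and 34.2 kb to the nearest CATCH-IT region. These gaps were not set against those of all listed H3.3 regions, so nearness and shared direction are description only. TGANTCA was in 18 of the 132 CATCH-IT member regions, 13.6%, against 10.8% of all listed, and TGACGTCA in 1, against 0.234% of all listed.

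A further 2 regions lost at 2 hr lie inside the longest annotated span of Rbfox1 but carry no gene name in the authors' deposited table, which calls them gene deserts. The one at chr16:6502001-6502240 had 4.59, 4.55 and 4.09 normalised reads with KCl, against 16.29, 12.50 and 12.27 without. The one at chr16:6509361-6509560 had 1.84, 3.03 and 4.09 with KCl, against 9.16, 10.83 and 13.50 without. Both were lower in every KCl library, with log2 fold changes of -1.63 and -1.90 and adjusted p of 0.0257 and 0.0230 in the authors' deposited table. Counted with them, the 2 hr losses were 4 in place of 2. They lie about 617 kb and 625 kb from the early Rbfox1 start, and upstream of the GENCODE gene.

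A list of 39 other RNA-binding genes of splicing and messenger control had few H3.3 regions. In culture 1 region was lost at 30 min, 3 were lost at 2 hr, and 1 was listed as lost at 5 hr without passing the threshold, and none was gained. In NeuN-negative nuclei 2 were gained, in NeuN-positive nuclei 0 were listed, and CATCH-IT listed 49 regions of 21 genes, 27 gained and 22 lost. These directions were also the common ones. Of all listed regions 78.6% were lost at 30 min, 85.3% lost at 2 hr and 70.6% gained in NeuN-negative nuclei, with an adjusted p at or under 0.05. At 5 hr 55.8% were listed as lost. In CATCH-IT 57.3% were gained, against 55.1% of these 49. The H3.3 regions are too few to be read against these shares. Srrm4, the neuronal activator of microexons, was listed at 2 times. At 30 min it had 6.92, 4.21 and 1.03 normalised reads with KCl, against 16.48, 10.82 and 14.65 without, with an adjusted p of 0.0299 in the authors' deposited table. At 5 hr, in separate libraries and 380 bp away, it had 2.95, 1.76 and 0.99 with KCl, against 11.80, 9.23 and 10.67 without, with an adjusted p of 0.0849 in the authors' deposited table. All KCl values were below all controls at both times, but the groups did not overlap at 100% of all regions listed at these times. Hnrnpu, a nuclear scaffold protein, lost H3.3 at 2 regions and Mbnl1, the muscleblind splicing regulator, at 1 region after 2 hr. In NeuN-negative nuclei the gains were at Qk, the glial quaking regulator, and at Elavl1 (HuR). Qk had 6.98, 7.93 and 6.51 normalised reads after enriched housing, against 1.90, 0 and 1.81 in normally housed mice. Elavl1 had 5.82, 10.57 and 8.13 after enriched housing, against 0, 0.68 and 1.81 in normally housed mice, with adjusted p of 0.00361 at Elavl1 and 0.00776 at Qk in the authors' deposited table.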

How the data were processed

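The series held 66 libraries, of which 41 belonged to the 14 groups of the 7 deposited tables. The submitters' processing notes name the aligner Bowtie 0.12.7, bedtools 2.16.2 and mm9; no region caller is named there. Each deposited table lists regions called as different between 2 groups, so a region missing from a table is not shown to be unchanged. Per the file headers, each region has the authors' normalised read counts, a coverage signal per library packed in one cell (a format other than a plain number) without library names, which match the deposited group means within 0.00667. The authors also deposited a ratio to input for each group, the log2 fold change of treated over control, and p-values and adjusted p-values, which were not recomputed. How the ratio was computed is not stated, and in CATCH-IT it is infinite at some regions where the group itself is at 0. No region had an absolute log2 fold change under 1.59. Normalisation was by table, so levels were not compared across tables. Columns of sample values left unused numbered 0.

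The 10 genes and the 39 other genes were chosen with earlier results of these data known. Gene names were matched by symbol, Ensembl ID or RefSeq accession, places were read from GENCODE vM1 and sequences from NCBIM37. The sequence of 1 region is not reported here. A region was called at an adjusted p of 0.05 or less. In the H3.3 tables every listed region was named, and in CATCH-IT the one with the smallest adjusted p per gene (of ties, that with the larger group mean) and the one nearest its start. Depth was read from the steps of the low values, whole multiples within 0.1 of what 1 read is worth, which was 0.758 to 1.36 normalised reads in H3.3 cultures, 0.316 to 2.72 in CATCH-IT, 0.785 to 1.51 in NeuN-positive and 0.542 to 2.64 in NeuN-negative libraries. The step finder was tested on simulated data. Intervals cover counting error only, and the floor of 3 reads over a group covers only that of the group at 0. Per the labels replicates are biological. The deposited distance to the gene start is counted from the lower coordinate on both strands in the 30 min, 2 hr and NeuN-negative tables, so it was recomputed along transcription. Alternatives were other thresholds, filters, a pseudocount of 1, ratios to input and leaving out each value. Python 3.11.15, numpy 2.4.6, pandas 2.3.3, scipy 1.17.1 and matplotlib 3.10.9 were used.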

Additional observations from a re-analysis of the deposited data

How the results depend on the processing

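At an adjusted p of 0.01 or less, lost member regions numbered 0 at 30 min and 0 at 2 hr, against 2 each at 0.05, and gained ones 0 in NeuN-positive nuclei, against 1. With every listed region counted, 1 was gained and 2 were lost for H3.3 at 5 hr, where 0 passed. With a mean of at least 10 in the higher group, 0 gained regions were left in NeuN-negative nuclei in place of 4, and 16 gained and 2 lost in CATCH-IT in place of 74 and 58. By the ratios to input 1 region was 3-fold lost at 30 min, and in CATCH-IT 8 were gained and 3 lost, where most ratios were infinite. A pseudocount of 1 left 1 lost region at 2 hr. Leaving out each value in turn gave between 1 and 2 lost regions at 30 min and at 2 hr, between 0 and 1 gained in NeuN-positive nuclei, and 4 in NeuN-negative nuclei. The adjusted p was not recomputed in these, only the 3-fold limit. The CATCH-IT counts could hardly move, with a group at 0 at 130 of 132 regions, and at 5 hr 0 H3.3 regions had passed, so both say nothing about stability. Of alternatives chosen after seeing the data, counting every region in the longest span of a gene gave 4 lost at 2 hr, and leaving out regions with any multiple of 6 reads left 28 gained and 2 lost in CATCH-IT. Within 1000 bp, 1 pair of regions from different tables lay together, against 0 that overlapped. By the authors' distance 3 regions lay within 5000 bp of a start and 1 within 1000 bp, the Celf5 region that is 6.06 kb away along transcription; counted that way 2 lay within 5000 bp. Over the 12 H3.3 regions, 92 alternative log2 fold changes kept their direction, and 3, all by ratios to input, moved by more than 1 SD. Leave-one-out values with a group at 0 have no finite fold and are not among them. The groups did not overlap at any of the 12 regions, so leaving out a value or adding a pseudocount could not reverse a direction. Only the ratios to input could have done so, and the kept direction is otherwise no sign of stability. No paired analysis was possible because the deposited values carry no library names or replicate numbers. The causes were not tested.

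Most calls rest on fewer than 25 reads per library, and a difference under about 3-fold was not listed in these tables. Lane number was not separable from treatment at 30 min, at 2 hr, for H3.1/2 at 5 hr, in CATCH-IT and in either sort of nuclei.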
